A study of Mus musculus with 23 samples.

Results

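The genes described here encode the amyloid precursor protein (APP) family and the proteases that cut it, the secretases. They were chosen by name: App, Aplp1 and Aplp2 for the family, Adam10 for alpha-secretase, Bace1 for beta-secretase, and Psen2, Ncstn, Aph1a and Psenen for subunits of gamma-secretase. These are 9 of the 52636 mouse genes counted, and all 9 were among the 17788 genes with enough counts to be tested. RNA was sequenced from whole mouse hippocampus in 23 libraries of 4 groups: P301S hypoxia (6 libraries), P301S normoxia (5), wild-type (WT) hypoxia (6) and WT normoxia (6). The labels give a mixed C57Bl6 and Balbc background for every mouse. P301S is a mutation of human tau that causes familial frontotemporal dementia, and the series title describes the hypoxia as chronic and intermittent, the pattern of oxygen loss in sleep apnoea. The labels name the genotype P301S but give no promoter for the transgene, no age and no schedule of hypoxia. The files count mouse genes alone, so transgene expression could not be checked in them.

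APP is a membrane protein, made by neurons among other cells, that is first cut in its outer domain, by either alpha-secretase or beta-secretase. The first route prevents the amyloid-beta peptide from forming, and the second leaves a stub from which gamma-secretase releases it. Gamma-secretase is a complex of a catalytic presenilin with nicastrin (from Ncstn), an Aph-1 protein and Pen-2 (from Psenen), and the same enzymes cut many other neuronal proteins, among them the APP-like proteins of Aplp1 and Aplp2. Amyloid-beta and tau are the proteins of the plaques and tangles of Alzheimer's disease.

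Library depth ran from 19.1 to 25.8 M counts (1 M is 1e6). Each gene's count is given in CPM, the count per 1 M counts of its library after scaling of the libraries, with the standard deviation (SD) between libraries. Counts were made over whole gene bodies, introns included. A gene was called where edgeR's quasi-likelihood test gave a Benjamini-Hochberg adjusted p below 0.05 over all tested genes. The markers of neurons were those of brain tissue: 5 of 7 neuron markers were tested and summed to between 4404 and 6020 CPM in every library (Tubb3 and Nefl were listed at 0), and the 5 markers of CA pyramidal cells, the principal hippocampal neurons, to between 596 and 777 CPM. Choroid plexus, which lies against the hippocampus, was present in unequal amounts, with its 13 markers, all of them tested, summing to 40.7 to 417 CPM in P301S hypoxia, 123 to 645 CPM in P301S normoxia, 33.6 to 506 CPM in WT hypoxia and 34.2 to 599 CPM in WT normoxia. A number in the WT titles was shared within a condition (66 in 5 of 6 normoxia libraries, 31 or 32 in all 6 hypoxia libraries), while each P301S title has a number of its own. What the number stands for is not stated, so it cannot be told apart from hypoxia in WT, and its sharing cannot be told apart from genotype. The labels do not say whether libraries came from separate animals, and p-values measure the spread between libraries.

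By edgeR, 2 of the 9 genes were called in any comparison, Aplp1 and Psenen, both lower in P301S than in WT hippocampus in normoxia. The sequences before the starts of these 2 genes and of App are shown because the 2 genes lie close together on chromosome 7 and moved the same way while App was not called. This contrast belongs to the main fit. After a trend with gene length and GC content was removed, App and Aplp1 were both at a log2 fold change of -0.17 in normoxia. None of these genes was then called. All are RefSeq sequence of GRCm38.p6 on the minus strand, written 5′ to 3′ towards the gene start and stopped before any annotated untranslated region. This stop cut the App sequence to 191 bases. GGGCGG, the core of the GC box, lies in the part of the App promoter left out. The lack of marked motifs in the printed App sequence therefore does not set it apart from Aplp1, whose promoter also holds GGGCGG. Capitals mark matches, on either strand, to the motifs listed after them. The sequences are chr7:30445583-30445832 for Aplp1, chr7:30563628-30563877 for Psenen (the one of its 2 RefSeq starts that is the start of the counted gene) and chr16:85173767-85173957 for App.
Aplp1: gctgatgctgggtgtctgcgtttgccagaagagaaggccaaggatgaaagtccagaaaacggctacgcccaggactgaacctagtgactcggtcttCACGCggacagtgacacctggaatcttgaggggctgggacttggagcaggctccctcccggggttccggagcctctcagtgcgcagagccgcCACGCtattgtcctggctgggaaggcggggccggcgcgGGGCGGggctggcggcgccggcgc
Psenen: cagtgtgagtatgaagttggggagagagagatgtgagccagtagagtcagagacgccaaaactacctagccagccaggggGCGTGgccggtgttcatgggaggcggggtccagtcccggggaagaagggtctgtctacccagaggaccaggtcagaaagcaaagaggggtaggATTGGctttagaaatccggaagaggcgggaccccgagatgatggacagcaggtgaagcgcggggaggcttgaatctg
App: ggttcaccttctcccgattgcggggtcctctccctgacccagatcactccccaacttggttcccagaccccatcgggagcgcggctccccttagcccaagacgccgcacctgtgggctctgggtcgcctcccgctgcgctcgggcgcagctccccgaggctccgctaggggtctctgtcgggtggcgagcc

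Promoter windows of 300 bases (250 before and 50 after the gene start) were found in RefSeq for 8 of the 9 genes, all but Bace1. There were 10 windows, with 2 each for Psen2 and Psenen, and they were set beside 32851 mouse promoters. The RefSeq starts of Psen2 lie 7138 and 17488 bases from the start of the counted gene, and the second of Psenen 423 bases from it. In 9 of the 10 windows G and C made up 58% to 73.3% of the bases, against a median of 52.7% over all promoters, with 10 to 32 CpG pairs against a median of 7, while the second window of Psen2 had 47.7% and 8 pairs. GGGCGG, the core of the GC box, was found in 6 of 10 windows and in 35.7% of all promoters, and CCAAT in 4 of 10 and 37.4%. TATAAA was found in 0 of 10 windows and 13.6% of all promoters. The cores bound by hypoxia-inducible factors were also counted: ACGTG in 3 of 10 windows (Adam10, Ncstn and the second of Psen2) and 19.6% of all promoters, and GCGTG in 6 of 10 windows (Aplp1, Aplp2, Adam10, the first of Psen2 and both of Psenen) and 32.4%. CACGTG, an E-box that contains ACGTG, was found in 2 of 10 windows (Adam10 and the second of Psen2) and in 7.15% of all promoters. Both strands were searched, and a match describes the letters of the window and not binding.

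**Figure D1:**
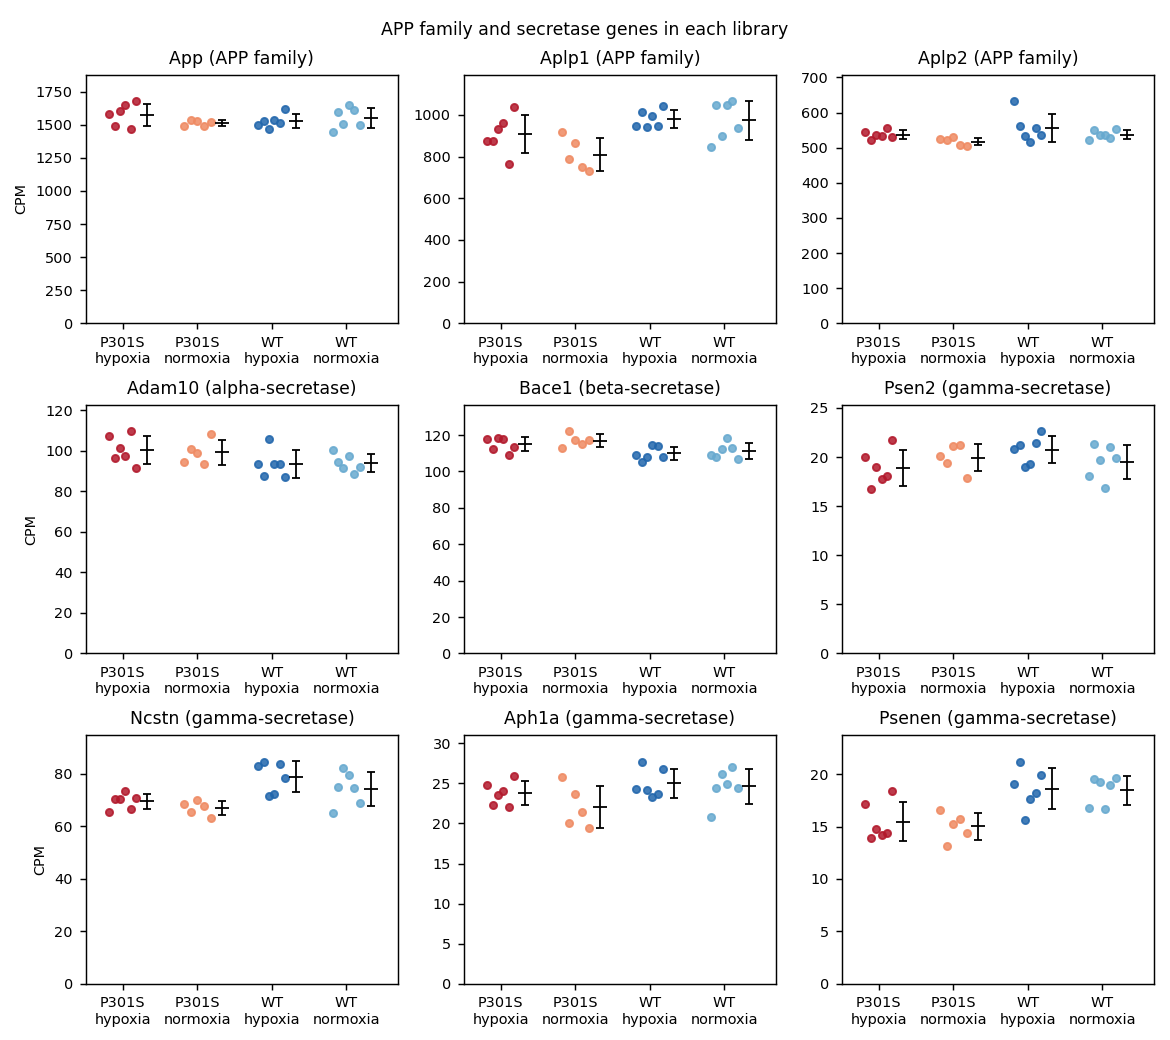
CPM (y axes, each starting at 0) of the 9 genes in every library of the 4 groups (x axis), with 1 point per library and the bar beside each group giving the mean and SD. In the Psenen panel the 5 P301S normoxia libraries, at most 16.6 CPM, all lie below the 6 WT normoxia libraries, at least 16.7 CPM, while in the App panel the groups overlap.

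Aplp1 encodes the APP-like protein found mainly in neurons (chromosome 7, 30434982 to 30445535, minus strand). Its levels in the 5 P301S normoxia libraries were 917, 787, 867, 748 and 729 CPM, and in the 6 WT normoxia libraries the lowest, median and highest were 845, 991 and 1065 CPM. In P301S hypoxia they were 764, 905 and 1037 CPM, and in WT hypoxia 940, 970 and 1043 CPM. The P301S normoxia libraries lay towards the low end with 3 of 5 below every WT normoxia library, and the 2 groups overlapped. Aplp1 fell to 810 ± 80.2 CPM in P301S normoxia (SD, n = 5), against 973 ± 92.4 CPM in WT normoxia (SD, n = 6), a log2 fold change of -0.27 (SE 0.07, edgeR adjusted p = 0.0356), or 16.8% less. In bulk tissue, fewer cells of a type and less RNA per cell cannot be told apart.

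Psenen encodes Pen-2, the small subunit that activates the gamma-secretase complex (chromosome 7, 30561863 to 30563627, minus strand). Its levels were 16.6, 13.1, 15.3, 15.7 and 14.4 CPM in the P301S normoxia libraries, against a lowest, median and highest of 16.7, 19.1 and 19.7 CPM in WT normoxia. Each P301S library was below each WT library, although the highest of the first and the lowest of the second almost touched. Psenen fell to 15 ± 1.31 CPM in P301S normoxia (SD, n = 5), against 18.5 ± 1.38 CPM in WT normoxia (SD, n = 6), a log2 fold change of -0.30 (SE 0.09, edgeR adjusted p = 0.0395), or 18.7% less. Groups of these 2 conditions that did not overlap, with P301S lower, were found for 1.72% of all tested genes. In this comparison 6.35% of the tested genes were called, 3.78% lower and 2.57% higher, against 2 of the 9 genes here, both lower. Overlapping genes on the other strand, U2af1l4 and Gm49396, cover part of Psenen. Reads that overlap Psenen and another gene would not have been counted for either, which leaves the Psenen count incomplete.

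Both calls depended on the processing. Aplp1 was called in 5 of 11 repeats of the normoxia test that left out 1 library, and Psenen in 3 of 11. Without WT normoxia replicate 2, 4 or 5, or P301S normoxia replicate 2, 4 or 5, the adjusted p of Aplp1 ran from 0.0634 to 0.0987, with fold changes of -0.26 to -0.23 on the log2 scale. Without WT normoxia replicate 2, 3, 5 or 6, or P301S normoxia replicate 2, 3, 4 or 5, that of Psenen ran from 0.0618 to 0.129, with log2 fold changes of -0.32 to -0.26. With the choroid plexus score of each library as a covariate, Aplp1 was at -0.27 (adjusted p = 0.0347) and Psenen at -0.29 (adjusted p = 0.0395), both still called. Without the 6 libraries of lowest choroid plexus score, neither was called (Aplp1 at -0.24, adjusted p = 0.125, and Psenen at -0.33, adjusted p = 0.0686), nor was either with the compared groups alone (adjusted p = 0.0806 for Aplp1 and 0.0559 for Psenen). With no filter on low counts Psenen was not called (adjusted p = 0.0572). All 13 choroid plexus markers had lower estimates in P301S than in WT normoxia (median log2 fold change -0.52, 0 called). The 6 markers of ependyma, the cells that line the ventricles, were also lower in their estimates (median -0.45, 0 called), at 25 to 70.9 CPM summed in P301S normoxia and 26.4 to 82.2 CPM in WT normoxia. Of the neuronal lists, 1 of 5 dentate granule cell markers, C1ql2 (-0.78, edgeR adjusted p = 0.0115), and 1 of 5 interneuron markers, Sst (-0.42, adjusted p = 0.0235), were called lower. Higher estimates were found for 2 of 5 dentate granule cell markers (list median -0.05) and 2 of 5 interneuron markers (list median -0.09). They were also found for 4 of 5 tested neuron markers (list median 0.07) and 3 of 5 CA pyramidal cell markers (list median 0.04), with 0 called in both lists. Microglial markers had lower estimates in 5 of 6 tested (median -0.21, 0 called), at 159 to 269 CPM summed over these 6 in P301S normoxia and 196 to 221 CPM in WT normoxia. Thalamus and habenula markers had higher estimates in 4 of 5 (median 0.20, 0 called), and oligodendrocyte markers in 6 of 8 (median 0.06, 0 called). Markers of the meninges had higher estimates in 5 of 6 (median 0.35, 0 called). Higher estimates were also found for 2 of 5 tested astrocyte (median -0.02), 3 of 6 endothelial (0.01) and 2 of 5 tested mural cell markers (-0.05), with 0 called. Within groups, over the 23 libraries, Aplp1 correlated at 0.61 with the microglia score, 0.51 with the CA pyramidal cell score and -0.50 with the astrocyte score. Psenen correlated at -0.57 with the neuron score, 0.52 with the thalamus and habenula score, 0.45 with the interneuron score and 0.43 with the ependyma score. The part of these cell types in the result was not tested.

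**Figure D2:**
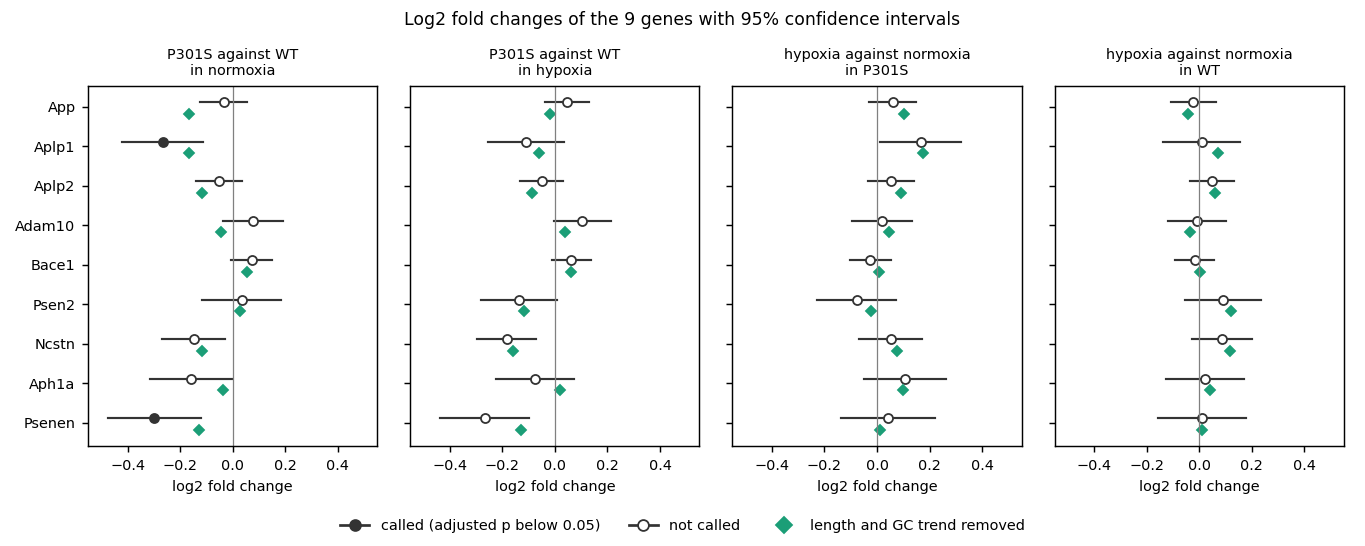
Log2 fold changes (x axis, the first-named group over the second) of the 9 genes (y axis) in 4 comparisons, with 95% confidence intervals, filled where called, and diamonds for the value after a trend with gene length and GC content was taken out of each library. Filled circles occur for Aplp1 and Psenen in the first panel, where the diamonds lie at -0.17 and -0.13.

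The fold changes between the genotypes ran with gene length over the whole data set, and this bears on genes as unequal in length as these. Across the tested genes in normoxia, the log2 fold change of P301S over WT had a Spearman correlation of 0.40 with gene-body length, over genes that are not independent replicates. Its median was -0.17 in the shortest of 10 equal bins of genes and 0.11 in the longest. Psenen, at 1.765 kb, belongs to the shortest bin, Aplp1, at 10.6 kb, to bin 3, whose median was -0.07, and App, at 219 kb, to the longest. When each library's trend with length and GC content was removed, 381 genes in place of 1130 were called, and neither Aplp1 (log2 fold change -0.17, adjusted p = 0.0623) nor Psenen (-0.13, adjusted p = 0.281) was among them. The estimate for App moved the other way, to -0.17 (adjusted p = 0.127).

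**Figure D3:**
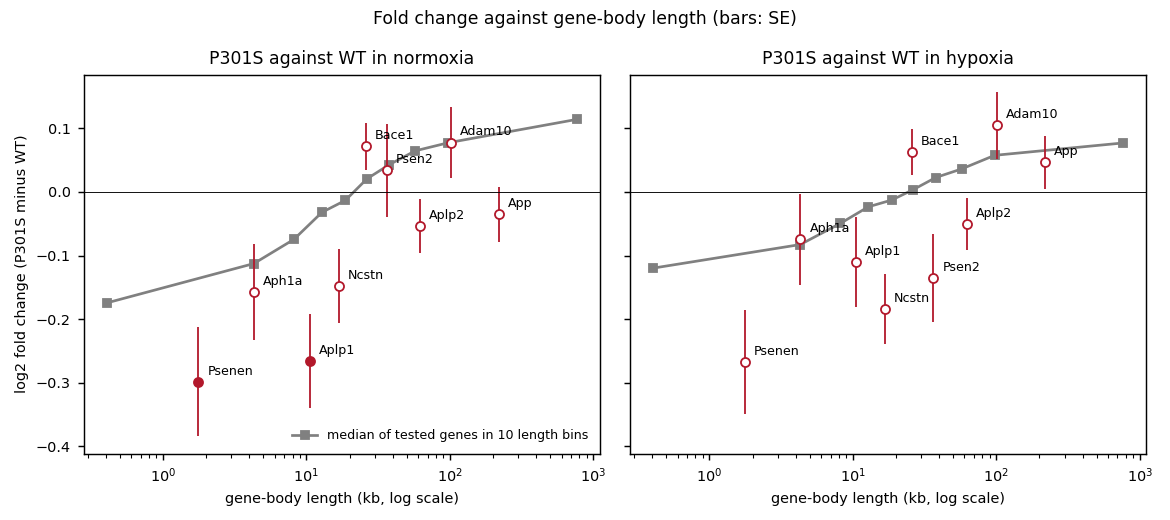
Log2 fold change of P301S over WT (y axis, bars give the SE) against gene-body length in kb (x axis, log scale) for the 9 genes, in normoxia (left) and hypoxia (right), with the median of all tested genes in 10 length bins as a grey line. The grey line climbs from -0.17 to 0.11 in normoxia, and Aplp1 at -0.27, Psenen at -0.30 and App at -0.03 are among the genes below it.

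App, the precursor of amyloid-beta (chromosome 16, 84954440 to 85173707, minus strand), was at 1488, 1533, 1529, 1494 and 1522 CPM in the P301S normoxia libraries, and the lowest, median and highest were 1448, 1550 and 1652 CPM in WT normoxia. The P301S values fell inside the WT range. Means were 1513 ± 20.6 CPM in P301S normoxia (SD, n = 5) and 1550 ± 78.6 CPM in WT normoxia (SD, n = 6), with a log2 fold change of -0.03 (edgeR adjusted p = 0.686) and a 95% confidence interval of -8.24% to 3.82%. In hypoxia App had 1467, 1590 and 1678 CPM as its lowest, median and highest in P301S, against 1465, 1522 and 1621 CPM in WT, and the interval of the difference was -2.64% to 9.53%. Intervals of this width leave room for changes of several percent in either direction.

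Aplp2, the more widely expressed APP-like gene (chromosome 9, 31149557 to 31211815, minus strand), had 524, 522, 530, 506 and 505 CPM in P301S normoxia, against a lowest, median and highest of 522, 536 and 553 CPM in WT normoxia. In hypoxia they were 522, 534 and 557 CPM in P301S and 517, 546 and 632 CPM in WT. The log2 fold change of P301S over WT was -0.05 in each condition (edgeR adjusted p = 0.48 in normoxia and 0.541 in hypoxia), and all groups overlapped. Within the family, App and Aplp2 were held within intervals of less than 10% on either side in both comparisons of genotype, and the call was for Aplp1. This contrast within the family belongs to the main fit. With the length and GC trend removed, App and Aplp1 were both at -0.17 in normoxia, and neither was called by edgeR (adjusted p = 0.127 and 0.0623).

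The share of each family gene in the counts of the 3 was also computed. App took 51.7% to 52.6% of the CPM summed over the 3 genes in P301S hypoxia, against 48.7% to 50.7% in WT hypoxia. In normoxia its share was 50.8% to 55.2% in P301S and 50% to 51.4% in WT. Aplp1 took a mean of 30 ± 1.54% in P301S hypoxia and 32 ± 0.78% in WT hypoxia (SD, n = 6 each), and 28.5 ± 1.98% in P301S normoxia (SD, n = 5) and 31.7 ± 1.3% in WT normoxia (SD, n = 6). The App shares of the genotypes were apart in hypoxia and overlapped in normoxia. No share over other gene families was computed to set beside this. The log2 fold changes of App and Aplp1 in hypoxia were 0.05 and -0.11 in the main fit. With the length and GC trend removed they were -0.02 and -0.06, and the shares were not corrected for that trend. The shares are of counts over genes of unequal length, not of molecules, and they were not tested.

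**Figure D4:**
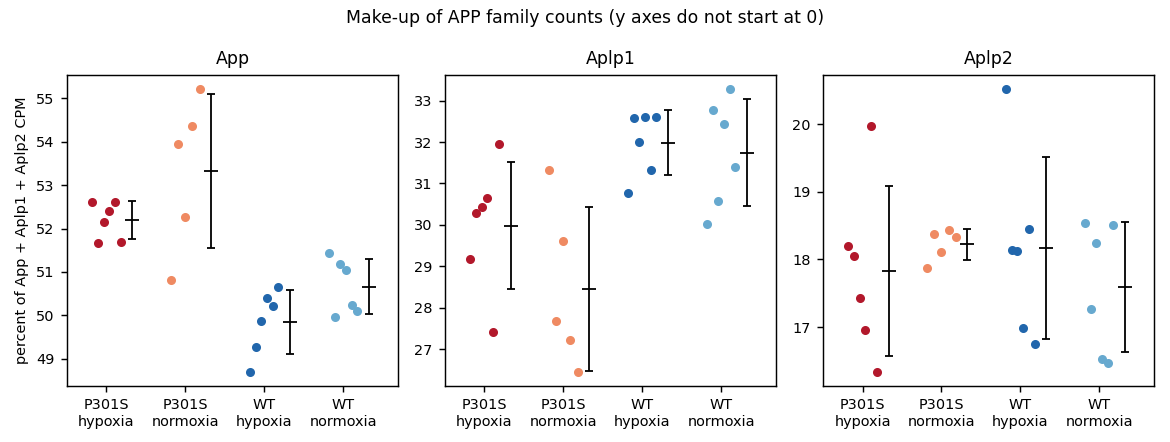
Percent of the CPM summed over App, Aplp1 and Aplp2 that each gene took (y axes, which do not start at 0) in every library of the 4 groups, with the mean and SD beside each group. The App share of the 6 P301S hypoxia libraries, at least 51.7%, lies above that of the 6 WT hypoxia libraries, at most 50.7%. The shares were not corrected for the trend with gene length.

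Adam10, the main alpha-secretase of neurons (chromosome 9, 70678997 to 70780229, plus strand), had 94.3, 101, 98.7, 93.5 and 108 CPM in P301S normoxia, against a lowest, median and highest of 88.5, 93.1 and 100.5 CPM in WT normoxia. Its values were 91.4, 99.4 and 110 CPM in P301S hypoxia and 87.1, 93.5 and 106 CPM in WT hypoxia. In each condition the P301S values reached higher and the groups overlapped. The log2 fold change of P301S over WT was 0.08 (SE 0.06, edgeR adjusted p = 0.431) in normoxia and 0.10 (SE 0.05, adjusted p = 0.302) in hypoxia, neither called.

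Bace1, the beta-secretase that starts the amyloid-beta route (chromosome 9, 45838580 to 45864399, plus strand), had the least spread of the secretase genes, with a coefficient of variation of 2.88% to 3.89% within groups. It was at 113, 122, 117, 115 and 117 CPM in P301S normoxia, against a lowest, median and highest of 107, 111 and 119 CPM in WT normoxia, and at 109, 116 and 118 CPM in P301S hypoxia, against 105, 109 and 115 CPM in WT hypoxia. The log2 fold change of P301S over WT was 0.07 (SE 0.04, edgeR adjusted p = 0.259) in normoxia and 0.06 (SE 0.04, adjusted p = 0.362) in hypoxia. The 95% confidence intervals were -0.41% to 10.9% in normoxia and -0.76% to 9.97% in hypoxia. Other annotated genes overlap 32.5% of the exon bases of Bace1, and reads there that also touched such a gene were not counted.

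Ncstn encodes nicastrin, the subunit that admits the substrate (chromosome 1, 172066013 to 172082795, minus strand). It was at 68.3, 65.3, 69.9, 67.8 and 63.2 CPM in P301S normoxia, against a lowest, median and highest of 65.1, 74.8 and 82 CPM in WT normoxia. In hypoxia the values were 65.4, 70.2 and 73.2 CPM in P301S and 71.3, 80.6 and 84.5 CPM in WT. The P301S libraries lay low within or below the WT range in both conditions, with some overlap. The log2 fold change was -0.15 (SE 0.06, edgeR adjusted p = 0.124) in normoxia and -0.18 (SE 0.06, edgeR adjusted p = 0.0803) in hypoxia, neither called. In normoxia it was called without WT normoxia replicate 1 (-0.18, edgeR adjusted p = 0.0348). In hypoxia it was called by DESeq2 (adjusted p = 0.0347) and, by edgeR, without WT hypoxia replicate 3 (adjusted p = 0.0408).

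Psenen in hypoxia was at 13.9, 14.6 and 18.4 CPM in P301S (lowest, median and highest), against 15.6, 18.6 and 21.2 CPM in WT. Most P301S libraries were below the WT range, and 2 reached into it. The log2 fold change was -0.27 (SE 0.08, edgeR adjusted p = 0.0872), not called, with DESeq2 calling it (adjusted p = 0.0422). It was also called by edgeR without WT hypoxia replicate 3 (adjusted p = 0.037) or without P301S hypoxia replicate 6 (adjusted p = 0.0226), and it was at -0.13 (adjusted p = 0.285) with the length and GC trend taken out. The genotype difference of Psenen was not shown to differ between normoxia and hypoxia, with an interaction of 0.03 (SE 0.12, adjusted p = 0.964), nor was that of Aplp1 (0.16, SE 0.10, adjusted p = 0.661).

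Aph1a encodes an Aph-1 scaffold subunit (chromosome 3, 95893969 to 95898288, plus strand) and was at 25.8, 20.1, 23.6, 21.5 and 19.5 CPM in P301S normoxia, against a lowest, median and highest of 20.8, 24.7 and 27.1 CPM in WT normoxia. Its log2 fold change of P301S over WT was -0.16 (SE 0.08, edgeR adjusted p = 0.212) in normoxia and -0.07 (SE 0.07, adjusted p = 0.626) in hypoxia. Another annotated gene, Car14, overlaps 15.1% of the exon bases of Aph1a, and reads that touched both genes were not counted. Psen2 encodes presenilin 2, a catalytic subunit (chromosome 1, 180227004 to 180263438, minus strand). It was at 20.1, 19.4, 21.1, 21.2 and 17.9 CPM in P301S normoxia, against 16.8, 19.8 and 21.3 CPM as lowest, median and highest in WT normoxia. The log2 fold changes of Psen2 were 0.03 (SE 0.07, adjusted p = 0.831) in normoxia and -0.14 (SE 0.07, adjusted p = 0.311) in hypoxia. Neither gene was called, and groups of both genes overlapped in both conditions.

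Over the 9 genes, the median log2 fold change of P301S over WT was -0.05 in normoxia, against 0.01 over all tested genes, and -0.07 in hypoxia, against 0.00 over all tested genes. With the length and GC trend removed, the median of the 9 was -0.12 in normoxia, against -0.01 over all tested genes. In hypoxia it was then -0.06, against 0.00. An unadjusted edgeR p below 0.05 was found in normoxia for 4 of 9 in the main fit, against 22.8% of all tested genes. In hypoxia 0 of the 9 genes were called by edgeR, against 1.87% of all tested genes, with 2 of 9 at an unadjusted p below 0.05, against 18.2% of all tested genes. DESeq2 called 2 of 9, against 4.35% of all tested genes. All 4 gamma-secretase genes had negative estimates in hypoxia, and 3 of 4 in normoxia. The direction of Psen2 in normoxia turned (to -0.01) without WT normoxia replicate 4, and that of Aph1a in hypoxia turned (to 0.02) with the length and GC trend taken out.

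Hypoxia moved none of the 9 genes past the threshold in either genotype. In WT mice 0 of 9 were called by edgeR, against 0.0731% of all tested genes, and 0 of 9 by DESeq2, against 0.899%. An unadjusted p below 0.05 was found for 0 of 9, against 11.6% of all tested genes. The estimates ran from -0.02 for App to 0.09 for Psen2 on the log2 scale. App, at 1465, 1522 and 1621 CPM in WT hypoxia against 1448, 1550 and 1652 CPM in WT normoxia, had an interval of -7.13% to 4.48%, and Bace1 one of -6.14% to 4.02%. Psenen had 15.6, 18.6 and 21.2 CPM in WT hypoxia against 16.7, 19.1 and 19.7 CPM in WT normoxia, and its interval of -10.2% to 13.1% allows larger changes.

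In P301S mice in hypoxia against normoxia, 0 of 9 genes were called by edgeR, against 0.41% of all tested genes, and 0 of 9 by DESeq2, against 1.62%. An unadjusted p below 0.05 was found for 1 of 9, Aplp1, against 13.8% of all tested genes, a share near that of the 9. Aplp1 averaged 908 ± 92.9 CPM in P301S hypoxia (SD, n = 6) and 810 ± 80.2 CPM in P301S normoxia (SD, n = 5), a log2 fold change of 0.17 (SE 0.07, edgeR adjusted p = 0.322). With the length and GC trend removed, Aplp1 was at 0.17 (edgeR adjusted p = 0.0677), again not called. This comparison shares its P301S normoxia libraries with that of the genotypes in normoxia. App had an interval of -2.02% to 10.9% and Bace1 one of -6.91% to 3.64%. Choroid plexus markers were lower in hypoxia in their estimates, 13 of 13 in each genotype, with median log2 fold changes of -0.66 in P301S and -0.92 in WT and 0 called. For the interaction of genotype and hypoxia 0 of 9 were called by edgeR, against 0.0394% of all tested genes, and 0 of 9 by DESeq2, against 0.292%. An unadjusted p below 0.05 was found for 0 of 9, against 9.43% of all tested genes.

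Levels can be set beside each other between genes only per length. Per kb of exon, over all 23 libraries, Aplp1 was highest at 306 ± 33.2 CPM per kb (SD), followed by App at 119 ± 5.03 and Aplp2 at 91.5 ± 4.37 CPM per kb. Adam10 (19.7 ± 1.33 CPM per kb), Ncstn (18.3 ± 1.62) and Bace1 (17.8 ± 0.716) came next, with Ncstn less than its SD from each of the other two. Psenen followed at 13.3 ± 1.79, then Aph1a at 6.94 ± 0.634 and Psen2 at 4.56 ± 0.378 CPM per kb. The exon lengths include bases under other genes, where reads that touched both genes were not counted. Such bases make up 32.5% for Bace1, 15.1% for Aph1a, 9.33% for Psenen, 4.91% for Ncstn, 2.59% for Psen2 and 0% for Adam10. Levels of the overlapped genes can therefore be too low, and the order of Adam10, Ncstn and Bace1 is not settled. Since introns were counted too, the order depends on the length used: per kb of gene body Aplp1 stayed highest at 87.4 ± 9.49 CPM per kb, but Psenen came next at 9.62 ± 1.29, App stood at 7.04 ± 0.298, behind Aplp2 at 8.64 ± 0.412, and Adam10 was at 0.956 ± 0.0643 CPM per kb. Psen2 was lowest on both scales, at 0.542 ± 0.045 CPM per kb of gene body.

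**Figure D5:**
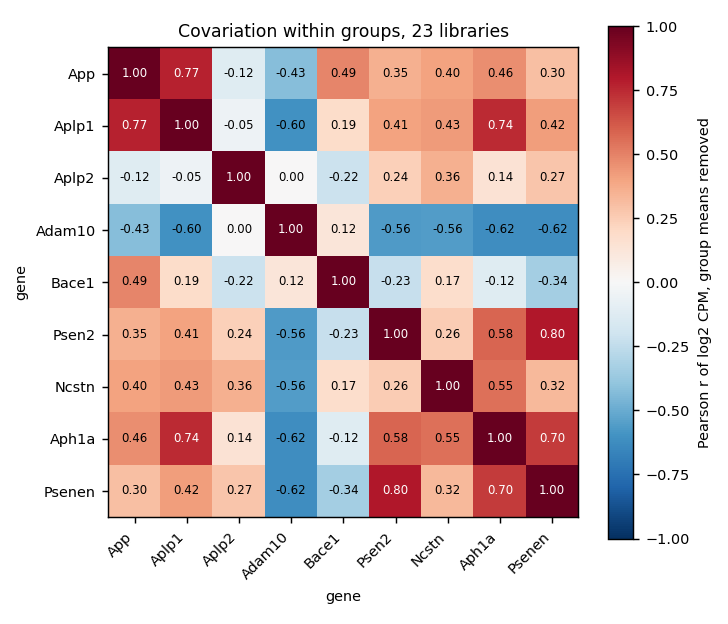
Pearson correlation (colour and number) between the log2 CPM of each pair of the 9 genes (both axes) over 23 libraries, after each group's mean was taken out. Psen2 and Psenen stand at 0.80 and App and Aplp1 at 0.77, while the Adam10 row holds -0.62 with Psenen and with Aph1a. The correlations were not corrected for the trend with gene length.

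Within groups the 9 genes varied together in part. With group means taken out, the correlation over 23 libraries was 0.80 between Psen2 and Psenen, 0.77 between App and Aplp1, 0.74 between Aplp1 and Aph1a and 0.70 between Aph1a and Psenen. Adam10 ran against them, at -0.62 with Psenen and with Aph1a, -0.60 with Aplp1 and -0.56 with Psen2 and with Ncstn. Bace1 correlated at -0.75 with the choroid plexus score and at 0.66 with the neuron score, and Aplp2 at 0.74 with the interneuron score. These values describe the libraries, whose genes share depth, scaling and tissue composition. They were not corrected for each library's trend with length and GC content, and they were not tested.

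For each gene, the 3 genes of most similar pattern over the 23 libraries were found among 13338 candidates by the same measure. Those of Aplp1 were Fkbp8 (r = 0.95), Apbb1 (r = 0.94), which encodes an adaptor that binds the APP tail, and Slc39a3 (r = 0.94), and Slc39a3 was also among those of App (r = 0.84), with Cbarp (r = 0.86) and Cptp (r = 0.84). Psenen was most like Rpl37rt (r = 0.89), Rps9 (r = 0.88), a ribosomal protein gene, and Paxx (r = 0.88). Psen2 was most like Hint2 (r = 0.81), Psenen (r = 0.80) and Slc48a1 (r = 0.80), and Aph1a like Fbxo6 (r = 0.92), Galk1 (r = 0.90) and Nosip (r = 0.90). Adam10 was most like Vcpip1 (r = 0.91), Fam126b (r = 0.90) and Ppp1cb (r = 0.90), a phosphatase subunit gene. The remaining matches were Sertm1 (r = 0.82), Synj1 (r = 0.80) and Plxna2 (r = 0.79) for Bace1, Mfn2, Atf5 and Igsf8 (each r = 0.79) for Ncstn, and Grm4 (r = 0.86), Icmt (r = 0.85) and Stk17b (r = 0.85) for Aplp2. The trend with length and GC content was not removed for these matches either.

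Further genes of the pathway were examined as a list of 49, of which 48 were tested: other secretases, APP adaptors, sorting receptors, regulators of the secretases, proteases that degrade amyloid-beta and other secretase substrates. In normoxia 6 were higher and 1 lower in P301S than in WT, against 6.35% of all tested genes called, and the list's median log2 fold change was -0.00, against 0.01 over all tested genes. The substrates held 4 of the 6 called higher. Nrg3 and Nrg1 encode neuregulins, growth factors shed from neurons. Nrg3 rose to 108 ± 14.7 CPM in P301S normoxia (SD, n = 5), against 71 ± 5.54 CPM in WT normoxia (SD, n = 6), a log2 fold change of 0.61 (SE 0.07, edgeR adjusted p = 3.34e-05), and Nrg1 rose to 32.5 ± 5.62 CPM in P301S normoxia, against 21.5 ± 3.34 CPM in WT normoxia, a log2 fold change of 0.60 (SE 0.14, adjusted p = 0.0172). For both, each P301S normoxia library was above each WT normoxia library, as were 1.62% of all tested genes.

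Dcc, a netrin receptor, rose by 0.46 (adjusted p = 0.00509) and Erbb4, a neuregulin receptor, by 0.29 (adjusted p = 0.0485) on the log2 scale in edgeR's test of the genotypes in normoxia. Apbb2, an adaptor of the APP tail, rose by 0.26 (adjusted p = 0.00855) and Mme, the amyloid-degrading protease neprilysin, by 0.51 (adjusted p = 0.0301), to 11.1 ± 0.951 CPM in P301S normoxia (SD, n = 5), against 7.82 ± 1.58 CPM in WT normoxia (SD, n = 6). Itm2c, which encodes a membrane protein of the BRI family that binds APP, fell by 0.33 (adjusted p = 0.00569), to 503 ± 34.2 CPM in P301S normoxia, against 634 ± 58.7 CPM in WT normoxia. All 6 genes called higher are longer than 131.9 kb and belong to the longest of the 10 length bins, in which 191 of 1779 genes were called higher and 0 lower. With the length and GC trend removed, Nrg3 (0.37, adjusted p = 0.000128) and Itm2c (-0.26, adjusted p = 0.00973) were still called, the other 5 were not, and Sorcs3, a sorting receptor gene, was called lower (-0.26, adjusted p = 0.0223). Leaving out 1 library at a time kept the calls of Nrg3, Dcc, Apbb2 and Itm2c in 11 of 11 repeats, those of Nrg1 in 9, Mme in 3 and Erbb4 in 2.

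None of the 48 genes was called by edgeR in the other 4 comparisons. For P301S against WT in hypoxia, where DESeq2 called 0 too, the lowest p-values belonged to Tspan15, a partner of Adam10 (log2 fold change -0.24, adjusted p = 0.102), Epha4 (0.22, adjusted p = 0.117), Nrg3 (0.20, adjusted p = 0.117) and Snx27 (0.13, adjusted p = 0.12). In P301S mice in hypoxia against normoxia they belonged to Nrg3 (-0.27, adjusted p = 0.0989), Nrg1 (-0.50, adjusted p = 0.119), Tspan15 (-0.27, adjusted p = 0.131) and Sorl1, a sorting receptor for APP (0.29, adjusted p = 0.135), and DESeq2 called 2, Nrg3 and Nrg1. In WT mice they belonged to Adam17 (-0.20, adjusted p = 0.319), Tspan15 (-0.18, adjusted p = 0.341), Apba3 (-0.22, adjusted p = 0.344) and Gsap (-0.17, adjusted p = 0.359), with 0 called by DESeq2. For the interaction they belonged to Nrg3 (-0.41, adjusted p = 0.175), Nrg1 (-0.61, adjusted p = 0.352), Snx27 (0.16, adjusted p = 0.427) and Sorcs2 (0.28, adjusted p = 0.487), with 1, Nrg3, called by DESeq2. Nrg3 was thus at 90.1 ± 4.54 CPM in P301S hypoxia, 108 ± 14.7 CPM in P301S normoxia, 78.1 ± 5.36 CPM in WT hypoxia and 71 ± 5.54 CPM in WT normoxia.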

How the data were processed

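Each deposited file holds raw counts: per the file headers, the authors ran featureCounts 1.6.2 on read pairs over whole genes of the Ensembl 90 annotation of GRCm38, with no strand setting, from alignments named as free of duplicates. Removal of duplicates can lower abundant short genes most. Per the submitters' processing notes, HISAT2, DESeq2 1.6.3 and mm10 were used. Per the labels' protocols, a stranded mRNA kit and 1 flow cell were used. Symbols, exon lengths and GC content came from GENCODE M21.

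Genotype and condition labels gave the groups; replicate numbers follow accession order and only name a library. Libraries of a group correlated at 0.976 to 0.993, and every pair differed by more than sampling noise. In R 4.3.3, edgeR 4.0.16 kept genes by filterByExpr (minimum count 10), scaled libraries by TMM and fitted 1 robust quasi-likelihood model with 4 group means to all 23 libraries, tested two-sided in 5 contrasts. Alternatives were DESeq2 1.42.0 (size factors, Wald test), no filter, the compared groups alone, removal of each library's trend with length and GC content (splines of 5 degrees of freedom), the choroid plexus score (mean log2 CPM of its markers, prior count 2) as a covariate, omission of the 6 libraries of lowest score (P301S hypoxia replicates 1 and 4, WT hypoxia 1, 4 and 5, WT normoxia 4), omission of each library in turn and, added after the data were seen, edgeR's earlier dispersion method. The fit was tested on simulated data. Similarity between genes was Pearson's r of log2 CPM with group means removed, among genes of at least 1 CPM. The text names all 9 genes, their 3 most similar genes, and the called pathway genes or, where fewer than 4 were called, the 4 of lowest p. The genes and lists were chosen with earlier results of these data known.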

Additional observations from a re-analysis of the deposited data

Results flagged for a closer look

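Of 36 sets of libraries examined (9 genes in 4 groups), 1 held a library far from the others: Adam10 was at 105.9 CPM in WT hypoxia replicate 3, with the next highest library of that group at 93.6 CPM. Chance gives such a gap in about 5% of sets. Ncstn and Psenen were called without the same library in P301S against WT in hypoxia.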

How the results depend on the processing

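The count of 2 genes called in P301S against WT in normoxia was 1 with no filter (Aplp1) and 0 with the compared groups alone, with the length and GC trend removed and without the 6 libraries of lowest choroid plexus score; leaving out 1 library gave 0 to 3. In hypoxia DESeq2 called 2 in place of 0, and leaving out 1 library gave 0 to 2. In the other 3 contrasts every setting gave 0. All-gene calls in P301S against WT in normoxia (1130) were 682 with no filter, 368 with the compared groups alone, 381 with the trend removed, 389 without the 6 libraries and 365 to 2069 with 1 library left out; pathway calls (7) were 3 with the trend removed and 4 (without P301S normoxia replicate 2 or 4) to 10 (without P301S normoxia replicate 1) with 1 library left out, and 1 in place of 0 with the trend removed in hypoxia against normoxia in P301S. In P301S against WT in hypoxia all-gene calls (333) were 773 by DESeq2, 213 with no filter, 182 with the compared groups alone, 163 with the trend removed, 16 without the 6 libraries and 91 (without WT hypoxia replicate 2) to 618 (without P301S hypoxia replicate 6) with 1 library left out. Over the edgeR alternatives they were 0 to 29 in hypoxia against normoxia in WT (13), 7 to 208 in P301S (73) and 0 to 13 in the interaction (7), and by DESeq2 160, 288 and 52.

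Estimates near 0 turned sign. With the length and GC trend removed, Adam10 was at -0.0440 in P301S against WT in normoxia, App at -0.0199 and Aph1a at 0.0207 in P301S against WT in hypoxia, Bace1 at 0.0091 in P301S and 0.0042 in WT in hypoxia against normoxia, and Bace1 at 0.0049 and Psenen at -0.00022 in the interaction. Without the 6 libraries, Psen2 was at -0.0064 in P301S against WT in normoxia, App at 0.0109 and Adam10 at 0.0075 in hypoxia against normoxia in WT, and Aph1a at -0.0077 in the interaction, where Bace1 was at 0.00028 with the choroid plexus covariate. The causes were not tested.

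With 1 library left out, log2 fold changes ran from -0.0117 to 0.0708 for Psen2 in P301S against WT in normoxia. In hypoxia against normoxia in WT they ran from -0.0282 to 0.0355 for Aplp1, -0.0468 to 0.0122 for Adam10, -0.0220 to 0.0509 for Aph1a and -0.0309 to 0.0577 for Psenen, and in P301S from -0.0109 to 0.0534 for Adam10 and -0.0128 to 0.0776 for Psenen. In the interaction they ran from -0.0169 to 0.0431 for Aplp2, -0.0021 to 0.0658 for Adam10, -0.0288 to 0.0072 for Bace1 and -0.0267 to 0.0731 for Psenen. No paired analysis was possible because the labels number no replicates across groups.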
